A study of Mus musculus with 12 samples.

Results

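Cholecystokinin, encoded by *Cck*, is a peptide hormone of the gut and a neuropeptide of the brain, and its precursor has also been described in heart muscle. Cells that release peptide hormones on demand pack the precursor into dense-core granules with chromogranins and secretogranins, cut it with prohormone convertases, trim it with carboxypeptidase E and amidate its end. Atrial cardiomyocytes hold such granules for the natriuretic peptides, and Notch is a membrane receptor whose intracellular domain (NICD) is released on activation and acts in the nucleus with the DNA-binding protein RBPJ. The 10 genes described here, of 54658 gene names in the table, are *Cck* and 9 genes of secretory granules and prohormone processing, called the granule genes here although *Pcsk6* acts mainly outside the granule: the granins *Chga*, *Chgb*, *Scg2* and *Scg3*, the convertase chaperone *Scg5*, the carboxypeptidase *Cpe* and the convertases *Pcsk1*, *Pcsk2* and *Pcsk6*. They were taken from the table by name. *Cck* was chosen because it differed between the groups, so its difference is given as a description with no test. The other 9 were chosen by function, though with earlier results of these data known. The question was whether *Cck* rises with or without this machinery.

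RNA-sequencing counts came from the left atrium (LA) of 12 mice. The 6 iNICD mice carried αMHC-rtTA and tetO_NICD, so that doxycycline turned on NICD, and the 6 control mice were littermates with αMHC-rtTA alone. Both groups ate doxycycline chow for 3 weeks, had no washout, were 2 to 3 months old and had a mixed genetic background. The αMHC promoter is active in cardiomyocytes, whereas the whole atrium was sequenced, and each atrium made 1 library. Females made up 4 of the 6 controls and 3 of the 6 iNICD mice.

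Library depth was 21432632 to 27182038 counted reads. Levels are given as CPM, which are read counts divided by the library's total in units of 1000000 reads after scaling by the TMM method, as mean ± SD over 6 libraries unless stated. *Notch1*, whose reads include those of the transgene, checked the labels: it was at 117.9 ± 10.01 CPM in controls and 3408 ± 441 CPM in iNICD libraries, with no overlap. Control replicate 5, a male, stood apart from the other controls, with a scaling factor of 0.863. Leaving it out raised the number of changed genes from 558 to 812, so member results that it moved by over 1.5 times are given without it too. Defining atrial cardiomyocyte genes were abundant in every library, the list of 8 summing to 85882 to 110047 CPM in controls and 56812 to 69943 CPM in iNICD libraries.

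The start of the *Cck* gene is shown first, since *Cck* carries the largest difference among the 10 genes. *Cck* lies on the minus strand of chromosome 9 at chr9:121489824-121495694 (GRCm38). The 250 bases before its start, chr9:121495695-121495944 on the minus strand of GRCm38.p6 as given by RefSeq, read as follows, with 3 short motifs in capitals.
Cck: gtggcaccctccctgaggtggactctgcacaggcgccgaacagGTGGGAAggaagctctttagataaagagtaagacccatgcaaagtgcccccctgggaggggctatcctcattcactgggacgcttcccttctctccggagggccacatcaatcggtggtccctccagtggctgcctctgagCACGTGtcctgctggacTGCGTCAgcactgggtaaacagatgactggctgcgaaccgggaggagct
The first capitals, GTGGGAA, are 207 to 201 bases before the start and spell a site of the kind that RBPJ binds. The core of that site, TGGGAA, occurs on either strand in 21.6% of 32851 RefSeq windows of this length, and GTGGGAA in 5.42%. CACGTG, an E-box, stands 66 to 61 bases before the start and is found in 6.02% of windows. TGCGTCA, close to the sites of CREB and AP-1 proteins, stands 49 to 43 bases before the start and is found in 1.75%. Of the 10 genes, 9 had a window, *Cpe* having none. Each of the 3 motifs in capitals was found in the *Cck* window alone of these 9, and the core of the first also in that of *Scg5*. The motifs were chosen after the sequence was read, both strands were searched, and a match describes letters, not a bound site.

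*Cck* was near the limit of detection in controls and well above it in iNICD atria. Control libraries held 1 to 10 *Cck* reads with a median of 5, and iNICD libraries 111 to 558 with a median of 280.5. All 6 iNICD libraries were above all 6 controls. Mean levels were 0.207 ± 0.127 CPM in controls and 11.7 ± 5.38 CPM in iNICD libraries, a log2 fold change of 5.78 (SE 0.43) or 55.1-fold. The control level rests on 30 reads in all against 1788 in the iNICD group. *Cck* exceeded 1 CPM, the filter for testing, in 6 libraries, which were those of the iNICD group. Leaving out each library in turn moved its log2 fold change between 5.53 and 6.09.

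**Figure D1:**
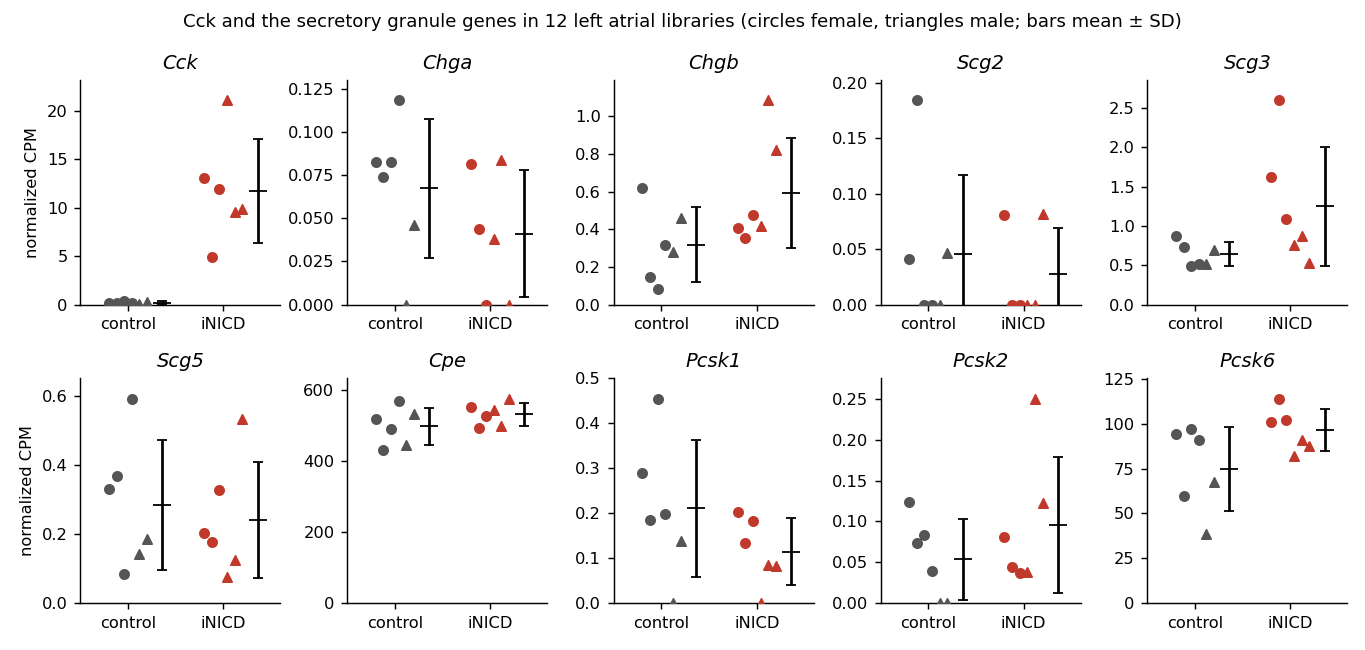
Normalized CPM of the 10 genes in each library (one panel per gene, each with its own axis from 0). Grey points are controls and red points iNICD, circles are female and triangles male, and the black bar beside each group is the mean ± SD over 6 libraries, cut at 0. *Cck* separates the groups, from 0.207 ± 0.127 to 11.7 ± 5.38 CPM, while the points of the other 9 genes overlap between groups.

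The size of the *Cck* difference varied among the iNICD atria. Replicate 4, a male, had the highest level at 21.1 CPM, and replicate 2, a female, the lowest at 4.89 CPM, with the remaining 4 libraries between 9.61 and 13.0 CPM. In females the mean was 0.230 ± 0.127 CPM in 4 controls and 9.97 ± 4.43 CPM in 3 iNICD libraries. Males had 0.162 ± 0.163 CPM in 2 controls and 13.5 ± 6.58 CPM in 3 iNICD libraries. In each sex all iNICD libraries were above all controls, which follows from the separation of the whole groups.

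Per kilobase of gene length, *Cck* moved from among the scarce granule genes to just under *Pcsk6*. In controls the order of mean levels was *Cpe* at 191 CPM per kb, *Pcsk6* at 14.4, *Scg3* at 0.233, *Scg5* at 0.181, *Cck* at 0.159, *Chgb* at 0.116, *Pcsk1* at 0.0376, *Chga* at 0.0244, *Scg2* at 0.0180 and *Pcsk2* at 0.00675. The ranges of every pair of neighbours in that order overlapped, except *Cpe* with *Pcsk6* and *Pcsk6* with *Scg3*. In iNICD libraries *Cck* was 3rd, at 9.003 CPM per kb, and its range of 3.75 to 16.2 overlapped that of *Pcsk6*, 15.9 to 22.0, but not that of *Scg3*, 0.195 to 0.950. Over all 54658 names, *Cck* went from rank 15984 to rank 4394 by mean CPM per kb. Of these names, 27285 had a read in any control and 27627 in any iNICD library.

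**Figure D2:**
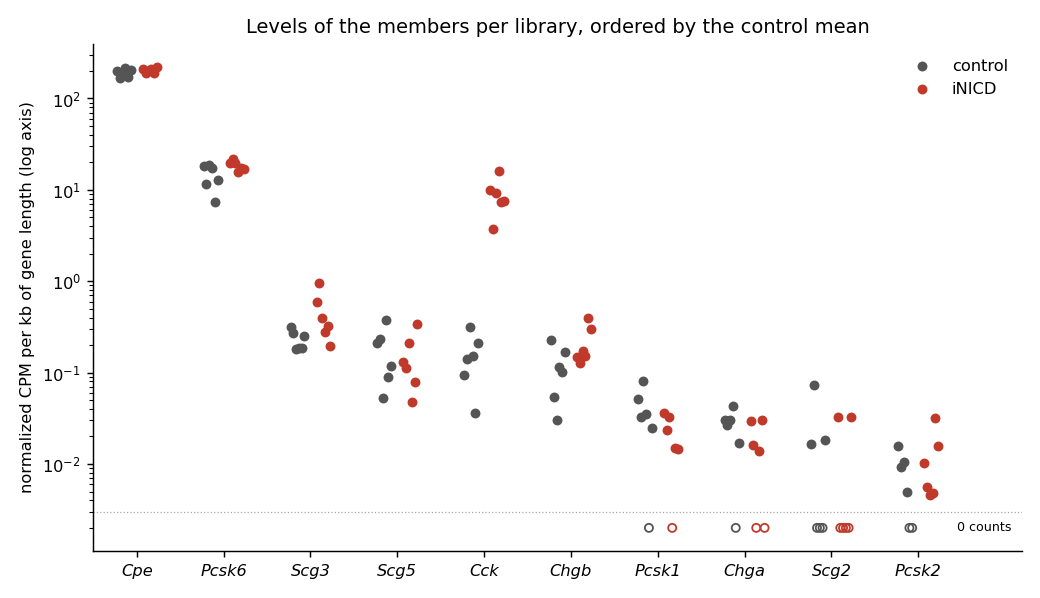
Normalized CPM per kilobase of gene length (log axis) for the 10 genes, ordered by the control mean. Each point is 1 library, grey for control and red for iNICD, and open circles below the dotted line are libraries with 0 counts. *Cpe* and *Pcsk6* lie far above the rest in both groups, and *Cck* moves from 5th to 3rd place, from 0.159 to 9.003 CPM per kb on average.

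Of the 9 granule genes, 2 were expressed highly enough to be tested, *Cpe* and the convertase *Pcsk6*, and neither passed the test. The granins and granule convertases were all below the filter. Over all 13541 tested genes 2.78% were called higher and 1.34% lower in iNICD atria, and 3.83% had groups that did not overlap. *Cpe* (chr8:64592542-64693054, minus strand; all positions are on GRCm38) encodes the enzyme that removes the basic residues left after convertase cleavage, and was abundant in both groups. Its counts ran from 9526 to 14389 with a median of 11776.5 in controls and from 11194 to 14425 with a median of 13841 in iNICD libraries. The groups overlapped. Mean levels were 498 ± 52.3 and 532 ± 32.3 CPM, a log2 fold change of 0.10 (SE 0.08, adjusted p = 0.55, edgeR quasi-likelihood test). By CPM per kb *Cpe* ranked 154th of all names in controls and 137th in iNICD libraries, so it was among the most abundant transcripts of the left atrium in both.

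*Pcsk6* (chr7:65861734-66050386, plus strand), also called PACE4, is a convertase that acts at the cell surface and outside the cell rather than in the granule. Its counts ran from 819 to 2354 with a median of 1944.5 in controls and from 2140 to 2806 with a median of 2335 in iNICD libraries. The lowest values were the 38.3 CPM of control replicate 5 and the 59.6 CPM of control replicate 2, and 3 of the 6 controls, at 91.0 to 97.4 CPM, lay within the iNICD range of 82.3 to 114 CPM. Those 3 controls were female, and within each sex the groups did not overlap (exact permutation p = 0.0571 in females and 0.1 in males, where the smallest possible are 0.0286 and 0.1). The share of all genes that separate within each sex was not computed, so this separation is a description only. Means were 74.6 ± 23.5 and 96.5 ± 11.7 CPM, a log2 fold change of 0.37 (SE 0.19, adjusted p = 0.347, edgeR quasi-likelihood test), and the unadjusted p was 0.078. Without control replicate 5 the log2 fold change was 0.24 (adjusted p = 0.385, edgeR). With sex as a covariate it was 0.48 (SE 0.16, adjusted p = 0.112, edgeR), and it was 0.31 in females alone and 0.71 in males alone (adjusted p = 0.356 and 0.767, edgeR). DESeq2 gave adjusted p = 0.56 for *Cpe* and 0.302 for *Pcsk6*, and the exact test of edgeR 0.708 and 0.365, so these tools too called 0 of the 2. At an unadjusted p under 0.05 the count was also 0. Part of the *Pcsk6* gene overlaps the gene model *Gm45213* on the same strand, where reads could be split between names.

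The remaining 7 members were below the filter for testing, and their reads are given as counts with an exact permutation test of normalized CPM, two-sided over all arrangements of the 12 libraries and not adjusted. The floor that 3 counts set was 0.109 to 0.140 normalized CPM per library, and it covers counting error only. *Chga* (chr12:102554969-102565028, plus strand), the chromogranin most used as a marker of neuroendocrine cells, had 0 to 3 reads in controls and 0 to 2 in iNICD libraries. Its totals were 10 and 6 reads (exact permutation p = 0.264). The difference of iNICD from control in *Chga* was -0.0262 CPM, and -0.0402 CPM without control replicate 5, which had no read (exact permutation p = 0.0714). With 1 library left out that difference ran from -0.0402 to -0.0160 CPM. *Scg2* (chr1:79434669-79440120, minus strand), the precursor of secretoneurin, had 7 reads over all controls and 4 over all iNICD libraries, and 4 of the iNICD libraries had none (exact permutation p = 0.652). Its difference was -0.0181 CPM, and -0.0275 CPM without control replicate 5 (exact permutation p = 0.522). Both stayed at or near the floor, so falls and small rises in these genes were not detectable at this depth, whereas *Cck* went from 30 to 1788 reads in the same libraries.

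*Chgb* (chr2:132781278-132795079, plus strand), another chromogranin, had 2 to 15 reads with a median of 7 in controls and 8 to 26 with a median of 12 in iNICD libraries. The groups overlapped, and the 2 highest libraries were male iNICD replicates 5 and 6. Mean levels were 0.318 ± 0.199 and 0.593 ± 0.294 CPM (exact permutation p = 0.0866). With 1 library left out the difference ran from 0.176 CPM (without iNICD replicate 5, exact permutation p = 0.169) to 0.334 CPM (without control replicate 1, exact permutation p = 0.0368), and the p was highest without control replicate 3 (exact permutation p = 0.18). A fit of all names with a read gave *Chgb* a log2 fold change of 0.89 (SE 0.44, adjusted p = 0.489, edgeR quasi-likelihood test).

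*Scg3* (chr9:75643189-75684056, minus strand), which binds chromogranin A and granule membrane, was the granin with the highest level per kb and had the smallest exact permutation p of the 7. Controls had 11 to 21 reads with a median of 14, and iNICD libraries 13 to 59 with a median of 25.5. The 2 highest libraries were female iNICD replicates 2 and 1, while iNICD replicates 4 and 6 lay inside the control range and replicate 5 just above it. Means were 0.638 ± 0.153 and 1.25 ± 0.760 CPM, and the exact permutation p was 0.0325, not adjusted. In the fit of all names with a read, 29835 in all, the log2 fold change of *Scg3* was 0.95 (SE 0.36) and did not pass the threshold (adjusted p = 0.29, edgeR quasi-likelihood test). The exact permutation p rose above 0.05 when any 1 of the 6 controls was left out (0.0563 to 0.106, differences of 0.581 to 0.655 CPM beside 0.611 with all libraries). It was 0.0628 without iNICD replicate 2, where the difference fell to 0.338 CPM. Without any 1 of the other 5 iNICD libraries it was 0.00433 to 0.0433, the lowest without replicate 6 (difference 0.754 CPM).

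In females the *Scg3* groups did not overlap, and in males they did, but the share of all genes that do so was not computed. Female means were 0.654 ± 0.181 CPM in 4 controls and 1.77 ± 0.764 CPM in 3 iNICD libraries, and the exact permutation p of 0.0286 was the smallest that 4 against 3 can give. Male means were 0.604 ± 0.127 CPM in 2 controls and 0.723 ± 0.175 CPM in 3 iNICD libraries (exact permutation p = 0.4, smallest possible 0.1). The difference between sexes itself did not pass: the interaction of *Scg3* was -1.19 on the log2 scale (SE 0.60, adjusted p = 1.00, edgeR quasi-likelihood test without a filter), with an unadjusted p of 0.0652. In the same fit *Pcsk2* had the lowest unadjusted p of the granule genes, 0.0147 (interaction 5.31, SE 1.94, adjusted p = 1.00, edgeR), with no read in either male control.

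*Scg5* (chr2:113776362-113829121, minus strand), also called 7B2, is the chaperone that *Pcsk2* needs to mature. It had 2 to 15 reads in controls and 2 to 13 in iNICD libraries, with medians of 6 and 4.5 (exact permutation p = 0.665), and a difference of -0.0431 CPM that became -0.0725 CPM without control replicate 5 (exact permutation p = 0.515). *Pcsk1* (chr13:75089826-75134861, plus strand), the convertase of early granules, had 0 to 11 and 0 to 5 reads, with medians of 5 and 2.5 (exact permutation p = 0.188). With 1 library left out, the difference of iNICD from control in *Pcsk1* ran from -0.141 CPM (without control replicate 5, which had no read, exact permutation p = 0.039) to -0.0481 CPM (without control replicate 3, exact permutation p = 0.381). *Pcsk2* (chr2:143546156-143816285, plus strand), the convertase of mature granules, had 0 to 3 and 1 to 6 reads, with medians of 1.5 and 1.5 (exact permutation p = 0.344). Groups overlapped for all 3 genes. The totals over 6 libraries were 42 and 36 reads for *Scg5*, 31 and 17 for *Pcsk1* and 8 and 14 for *Pcsk2*, so these values have wide counting error. *Pcsk2* overlaps the antisense genes *Pcsk2os1* and *Pcsk2os2*, and *Scg3* the model *Gm37871* on the other strand. The libraries were stranded, but the sources used here do not say whether the counting used strand, so reads of such partners may not be told apart.

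Neither *Cpe* nor *Pcsk6* passed the test for a difference between sexes. With genotype in the model, 39 of 13541 genes (0.288%) differed between males and females, and 1883 had an unadjusted p under 0.05. *Pcsk6* was lower in males by a log2 difference of -0.47 (SE 0.16, unadjusted p = 0.0123), which did not pass (adjusted p = 0.232, edgeR quasi-likelihood test). In each genotype the male mean of *Pcsk6* was below the female mean, 52.8 ± 20.5 (2 libraries, 38.3 and 67.3) against 85.5 ± 17.5 CPM in controls and 87.0 ± 4.38 against 106 ± 7.13 CPM in iNICD libraries. Without control replicate 5, which holds the 38.3 CPM, the sex difference of *Pcsk6* was -0.31 (SE 0.12, adjusted p = 0.256, edgeR). For *Cpe* the sex difference was 0.00 (SE 0.08, adjusted p = 0.983, edgeR), and 0.05 without control replicate 5 (SE 0.08, adjusted p = 0.795, edgeR). In the test of whether the genotype difference depends on sex, 0 of 13541 genes (0%) passed, with 501 at an unadjusted p under 0.05, and DESeq2 called neither *Cpe* nor *Pcsk6*.

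Variation among the iNICD atria was used to ask whether *Cck* followed the transgene or the granule genes, with 4 relations computed on log2 CPM. For *Notch1* Pearson's r was 0.13 (exact permutation p = 0.781) and Spearman's rho 0.37 (exact permutation p = 0.497), n = 6. *Scg3* gave r of -0.57 (exact permutation p = 0.218) and rho of -0.31 (p = 0.564). *Cpe* gave r of 0.57 (exact permutation p = 0.237) and rho of 0.60 (p = 0.242). *Pcsk6* gave r of -0.73 (exact permutation p = 0.0847) and rho of -0.54 (p = 0.297). Adjusted over the 4 relations, the lowest p was 0.317 for r and 0.564 for rho.

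These relations rested on few libraries. Without the 2 libraries farthest from the median on the x axis, r became 0.94 for *Notch1*, -0.32 for *Scg3*, 0.71 for *Cpe* and 0.93 for *Pcsk6*, each over 4 libraries, which turned the sign for *Pcsk6*. Replicates 2 and 4, with the lowest and the highest *Cck*, had the 2 highest *Notch1* levels, 3829 and 4077 CPM. Leaving out replicate 2 gave r of 0.99 with *Notch1* (exact permutation p = 0.0167), and leaving out replicate 4 gave r of -0.75 (exact permutation p = 0.192).

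**Figure D3:**
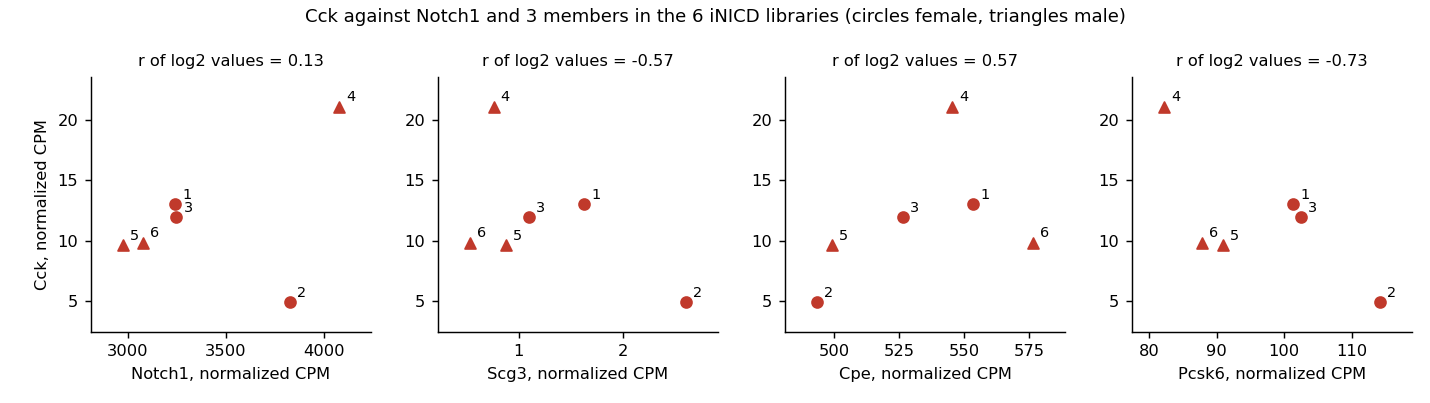
*Cck* (y axis, normalized CPM) against *Notch1*, *Scg3*, *Cpe* and *Pcsk6* (x axes, normalized CPM) in the 6 iNICD libraries, numbered by replicate, circles female and triangles male; r above each panel is of the log2 values. Replicates 2 and 4 lie apart from the other 4, and no relation passed the exact permutation test over the 6.

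Other enzymes that process prohormones were compared in the same way. Of a list of 17, 15 were tested and 0 were called in either direction, a count near the 2.78% higher and 1.34% lower over all tested genes, with 1 at an unadjusted p under 0.05 (beside 17.4% of all tested genes) and also 0 called by DESeq2 and by the exact test of edgeR. Their log2 fold changes lay between -0.35 and 0.29, with a median of 0.05 beside -0.01 over all tested genes. *Pam*, which amidates peptides such as cholecystokinin and is a main membrane protein of atrial granules, was at 7127 ± 605 CPM in controls and 7742 ± 455 CPM in iNICD libraries (adjusted p = 0.476, edgeR). *Furin*, the convertase of the constitutive pathway, was at 225 ± 52.2 and 218 ± 16.9 CPM (adjusted p = 0.874, edgeR).

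Among other convertases, *Pcsk5* was at 9.57 ± 1.24 and 9.16 ± 1.61 CPM, and *Pcsk7* at 35.97 ± 0.743 and 35.7 ± 2.65 CPM. *Tpst1* and *Tpst2*, which sulphate tyrosines as in cholecystokinin, were at 22.4 ± 3.06 and 23.3 ± 1.87 CPM and at 28.3 ± 1.94 and 26.9 ± 2.56 CPM. None of these 4 was called. *Corin*, the protease that cuts the precursor of atrial natriuretic peptide, was the 1 gene at an unadjusted p under 0.05 and was chosen after its values were seen. It was at 339 ± 59.6 and 413 ± 45.2 CPM, a log2 fold change of 0.29 (SE 0.11, adjusted p = 0.204, edgeR). *Pcsk1n*, which encodes an inhibitor of *Pcsk1*, was not tested and had 3 reads over all 12 libraries.

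Of the genes for granule formation and release, 39 of 40 listed names were in the table, 27 were tested, 2 rose and 0 fell, with a median log2 fold change of -0.02. Over all tested genes 2.78% rose. At an unadjusted p under 0.05 were 7 of the 27, 3 with higher and 4 with lower means, beside 17.4% of all tested genes. *Sytl2*, a Rab27 effector that tethers granules at the membrane, rose from 50.9 ± 11.1 to 77.9 ± 8.63 CPM (log2 fold change 0.61, SE 0.14, adjusted p = 0.0261, edgeR). *Syt7*, a calcium sensor of exocytosis, rose from 87.9 ± 17.8 to 134 ± 27.4 CPM (log2 fold change 0.61, SE 0.16, adjusted p = 0.0464, edgeR). In both genes all iNICD libraries were above all controls.

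Both calls lay near the threshold. *Sytl2* passed in 8 of 12 fits with 1 library left out and missed without control replicate 1 or 4 or iNICD replicate 4 or 5 (highest adjusted p = 0.0634, edgeR). *Syt7* passed in 2 of the 12, those without control replicate 3 or 5 (highest adjusted p = 0.0962, edgeR). Another 2 genes, chosen after their values were seen, were just outside. *Unc13a*, a priming factor, was at 1.87 ± 0.120 and 1.20 ± 0.273 CPM, with groups that did not overlap (adjusted p = 0.0521, edgeR). *Cplx2*, a complexin, was at 10.8 ± 2.75 and 16.7 ± 3.82 CPM (adjusted p = 0.0824, edgeR). The 12 listed genes that were not tested include the SNARE *Snap25* with 11 reads, the granin *Vgf* with 2 and the Rab3 effector *Rph3a* with 2 over all 12 libraries.

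**Figure D4:**
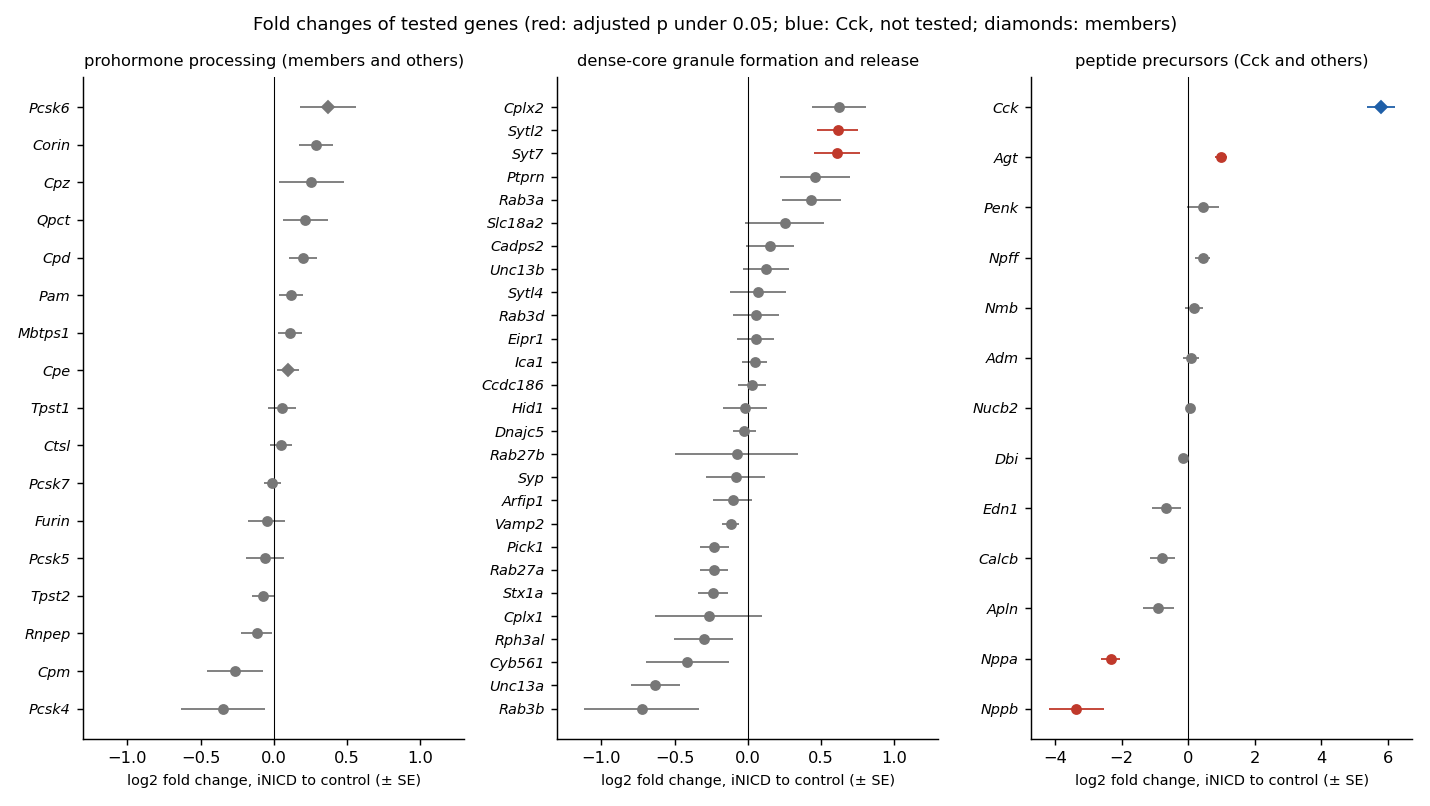
Log2 fold changes (iNICD to control, bars ± SE) of tested genes for prohormone processing, for granule formation and release, and for peptide precursors. Red marks an adjusted p under 0.05, diamonds the genes of the set, and blue *Cck*, which was not tested; the axis of the right-hand panel is wider. *Cck* at 5.78 lies far from all processing genes, which stay between -0.35 and 0.37, and from the granule genes, which stay between -0.73 and 0.62.

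*Cck* was then placed among 58 other precursors of peptide hormones and neuropeptides. Of these, 12 were tested, 1 rose and 2 fell, beside 2.78% and 1.34% of all tested genes, and 12 had no read in any library. *Agt*, the precursor of angiotensin, rose from 32.8 ± 6.96 to 64.6 ± 15.4 CPM (log2 fold change 0.98, SE 0.17, adjusted p = 0.00494, edgeR). *Nppa*, the precursor of atrial natriuretic peptide, fell from 24221 ± 3866 to 4821 ± 2060 CPM (log2 fold change -2.33, SE 0.28, adjusted p = 0.000339, edgeR). *Agt* and *Nppa* had groups that did not overlap and passed in all 12 fits with 1 library left out.

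*Nppb*, the precursor of B-type natriuretic peptide, fell from 915 ± 1207 to 89.2 ± 80.2 CPM (log2 fold change -3.36, SE 0.83, adjusted p = 0.0397, edgeR), and its groups overlapped. Control replicate 5 held 3293 CPM of *Nppb*, against 120.4 to 1044 CPM in the other controls. Without it the log2 fold change was -2.30 (adjusted p = 0.0504, edgeR), and *Nppb* passed in 3 of 12 fits with 1 library left out.

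By mean CPM per kb, *Cck* was 18th of the 59 precursors in controls and 5th in iNICD libraries, at 9.003 ± 4.12. *Nppa* at 5573 ± 2382, *Nppb* at 114 ± 103, *Dbi* at 50.9 ± 1.66 and *Agt* at 34.2 ± 8.15 CPM per kb were above it. Next below it were *Nucb2*, the nesfatin precursor, at 6.83 ± 0.343 and *Adm*, adrenomedullin, at 5.95 ± 2.17 CPM per kb, which differed from *Cck* by less than its SD.

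**Figure D5:**
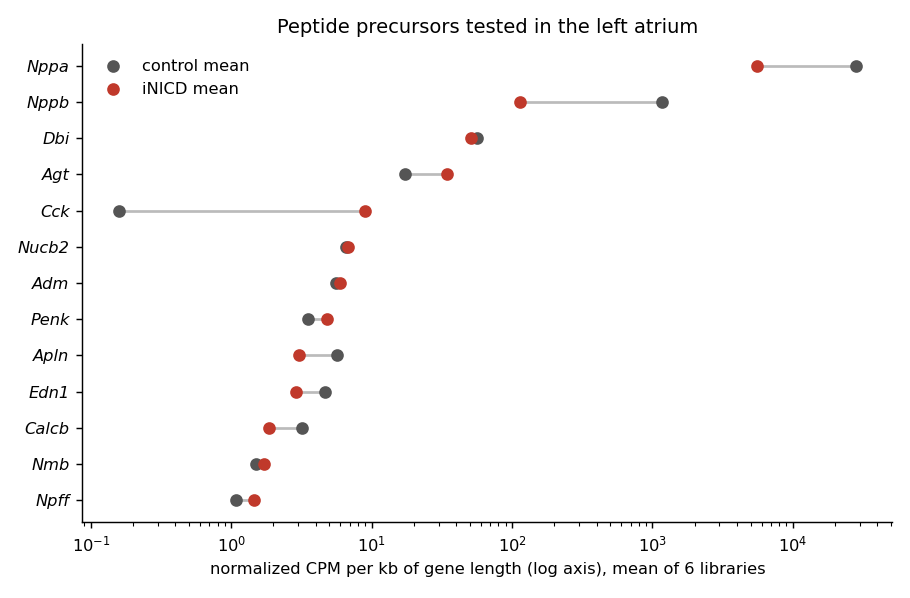
Mean normalized CPM per kilobase of gene length (log axis) of the 13 peptide precursors that passed the filter, grey for control and red for iNICD (mean of 6 libraries each), ordered by the iNICD mean. *Nppa* and *Nppb* shift left, from 28002 to 5573 and from 1171 to 114, while *Cck* shifts right, from 0.159 to 9.003.

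The receptors for cholecystokinin were almost unread. *Cckar* had 2 reads over all 12 libraries, *Cckbr* had 1, and *Gast*, the related hormone gastrin, had 0, which allows up to 0.109 to 0.140 normalized CPM, depending on the library. Of 12 transcription factors that drive neuroendocrine programs or repress them, 1 was tested, *Rest*, the repressor of neuronal and granule genes. It was at 32.4 ± 2.52 CPM in controls and 33.1 ± 1.83 CPM in iNICD libraries (adjusted p = 0.832, edgeR), and 4 of the other 11 had no read in any library.

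Markers of other cells that could carry *Cck* or granule genes are given beside these results. In whole atria, a larger share of a cell type and more RNA per cell cannot be told apart. Of 13 neuronal markers 1 was tested, *Stmn2*, with a log2 fold change of 0.00 (SE 0.22). The 13 summed to 3.35 to 6.74 CPM in controls and 3.48 to 5.68 CPM in iNICD libraries, and *Chat* had no read. Schwann cell markers, 5 of 7 tested and 0 called, summed to 45.2 to 62.8 and 58.6 to 75.1 CPM. Lung epithelium markers, 0 of 4 tested, summed to at most 0.869 CPM in controls and 0.803 CPM in iNICD libraries, and *Sftpb* had no read.

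Among 8 atrial cardiomyocyte markers 5 fell and 0 rose, beside 1.34% lower over all tested genes: *Nppa*, *Myl4*, *Sln*, *Myl7* and *Tnnt2*. The other 3 were not called, with log2 fold changes of -0.03 for *Myh6*, 0.07 for *Ryr2* and -0.46 for *Actc1*. The summed ranges did not overlap, as given above, and the largest part of the fall was that of *Nppa*, from 24221 to 4821 CPM. *Myh6*, the most abundant of the 8, was at 33643 and 32890 CPM. Ventricular markers (2 of 4 tested) and markers of endothelial cells (5 of 5), mesothelial cells (6 of 6), fibroblasts (6 of 6), smooth muscle (5 of 5) and leukocytes (5 of 6) had 0 called. The ventricular list, in which *Irx4* had no read, summed to 21.2 to 2158 CPM in controls and 17.5 to 2231 CPM in iNICD libraries. Of 5 mast cell markers 2 passed the filter. One of these, *Mcpt4*, passed it through the iNICD libraries, so its levels of 0.372 ± 0.402 CPM in controls and 4.93 ± 2.25 CPM in iNICD libraries are given with no test, and *Kit* was not called. The mast cell list summed to 4.59 to 10.1 CPM in controls and 9.03 to 17.4 CPM in iNICD libraries, while *Cma1*, *Tpsb2* and *Cpa3* had means of 0.277 to 0.350 CPM in either group. The part of these cells in the *Cck* difference was not tested.

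The genes around *Cck* on chromosome 9 were compared next. The 5 nearest tested genes on each side were *Myrip*, *Eif1b*, *Rpl14*, *Ctnnb1* and *Trak1* on one side and *Sec22c*, *Ss18l2*, *Nktr*, *E530011L22Rik* and *Zfp651* on the other. Of these 10, 0 were called by the edgeR test, near the 2.78% higher and 1.34% lower over all tested genes, with log2 fold changes from -0.38 to 0.11 and a lowest adjusted p of 0.176, that of *E530011L22Rik*. *Trak1*, a kinesin adaptor whose gene ends 14.9 kb from *Cck*, was at 439 ± 26.05 and 474 ± 41.3 CPM. The others lay farther away, from 184 kb for *Sec22c* to 1015 kb for *Myrip*, and names below the filter were not compared.

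Among 13516 genes, those most like *Cck* over the 12 libraries, by Pearson's r of log2 CPM, included *Ctdspl* (0.99), *Ces2g* (0.98), *Grhl3* (0.98) and *Lrrc8e* (0.98), all 4 with higher means in iNICD libraries. With the group means subtracted, so that only variation inside the groups counts, the list was *Mettl17* (0.92), *B3glct* (0.90), *Tmpo* (0.89), *Slc8a3* (0.89) and *Mrps36* (0.88). No gene was on both lists. These r are descriptions over libraries that share depth and scaling, with no test. Those over the 12 libraries mostly follow the group difference for which *Cck* was chosen, so higher means were fixed by that choice.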

How the data were processed

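Each left atrium gave a stranded library depleted of ribosomal RNA. The authors deposited 1 table of raw, unnormalized counts per gene name for the 12 libraries. The labels list cutadapt, STAR 2.4.2a, Subread featureCounts, edgeR and mm10. The methods give a TopHat2 and HTSeq route without mitochondrial reads, and a route with another STAR version, Subread and edgeR on mm10. The table does not name its route and holds 37 mitochondrial genes. The deposited length in bases per gene name is the authors' own, matched the summed exons of GENCODE M21 in the 10 genes, and served for CPM per kb.

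Group and replicate came from the sample titles, sex from the descriptions. The members and lists were chosen with earlier results of these data known. Genes with over 1 CPM in at least 6 libraries, 13541 in all, were tested with edgeR 4.0.16 in R 4.3.3 (TMM, quasi-likelihood test, two-sided, Benjamini-Hochberg adjustment over all of them, threshold 0.05). Standard errors come from the F statistic. Levels of untested members were compared by exact permutation. Correlations used log2 CPM with a prior count of 2. Scripts were tested on simulated data. Libraries are single atria and p-values measure the spread between them; no 2 of a group were copies (lowest chi-square per gene 14.2).

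Named genes are the 10 members, *Notch1*, chosen processing and receptor genes, up to 5 changed genes each way per list, the 5 tested neighbours per side, and the 5 genes most like *Cck* by either measure, apart from items not reported here; other names, such as *Mcpt4* and the atrial markers, were chosen after their values were seen. Alternatives were DESeq2 1.42.0, the exact test of edgeR, RLE and upper quartile scaling, no filter, filterByExpr, sex as a covariate, a replicate block, each sex alone, each library left out and no mitochondrial genes. An interaction fit without a filter was chosen after seeing the data.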

Additional observations from a re-analysis of the deposited data

Results flagged for a closer look

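*Scg2* had 5 reads in control replicate 2, 0.184 normalized CPM, far above the other controls for the spread of a group of 6 (0 to 0.0463 CPM). Of 22 groups of libraries examined in this way 1 stood out, where chance gives about 1 in 20, or 1.1 here.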

How the results depend on the processing

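The count of changed granule members other than *Cck* was 0 higher and 0 lower under all alternatives tried, as was that of other processing enzymes. *Cpe* and *Pcsk6* kept their direction throughout. The log2 fold change of *Cck* was 5.42 to 6.32, and 5.53 to 6.09 with 1 library left out. *Cck* was chosen for its difference and every iNICD library was above every control, so its direction could not turn. For granule formation and release, the count lower was 1 in place of 0 with DESeq2, the exact test, RLE, upper quartile scaling, sex as a covariate and without mitochondrial genes. The count higher was 3 in place of 2 with DESeq2 and the exact test, 1 with upper quartile scaling and 0 in females or males alone. Among precursors the count higher was 0 in place of 1 in each sex alone, and the count lower 3 in place of 2 with DESeq2 and 0 in males. With 1 library left out, the granule counts ran from 0 to 2 higher and 0 to 1 lower, and those of precursors lower from 1 to 2. Over the same fits, r of *Cck* with *Notch1* ran from -0.75 to 0.99 with *Scg3* from -0.79 to 0.10, with *Cpe* from 0.18 to 0.83 and with *Pcsk6* from -0.82 to -0.38, and the difference in mean CPM from -0.0291 to 0.00967 for *Scg2* and from -0.102 to 0.0187 for *Scg5*. In single sexes the direction turned for *Pcsk2* in females (-0.0268 CPM) and, in males, for *Chga* (0.0165), *Scg2* (0.00394) and *Scg5* (0.0774). The cause was not tested, and fits of single sexes have fewer libraries. Depth limits the 7 untested members, which had 11 to 275 reads over all 12 libraries.

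The replicate numbers were not taken as pairs: same-numbered libraries correlated between -0.15 and 0.37 in their deviations, and 4 of 6 were over 0.1, with the numbers of the titles. With a replicate block by these numbers 1 gene of granule formation and release was called higher. With a block by the numbers of the descriptions, 0 of these were higher and 1 precursor was lower. With the titles 3 of 6 libraries correlated best with their own number, with the descriptions 2.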
